A study of Mus musculus with 9 samples.

Results

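Mitochondrial ribosomal protein genes were taken as the genes of the deposited table whose symbol is Mrpl or Mrps followed by a number and at most 1 letter. The rule found 78 of the 56748 genes in the table. Of these, 77 were detected, meaning that at least 3 of the 9 libraries gave them 10 or more normalized counts, and were among the 17338 genes tested. By the place of the protein in the ribosome, 51 encode large subunit proteins and 26 encode small subunit proteins. Mrps36 belongs to neither, since its protein is a subunit of the 2-oxoglutarate dehydrogenase complex, and Mrps18a and Mrps30 encode large subunit proteins in spite of their symbols.

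The RNA came from wild-type (WT) primary mouse airway basal stem cells of the trachea, the progenitors of the airway lining. All groups were grown in air-liquid interface (ALI) culture, in which cells on a membrane are fed from below and meet air above, and their labels differ only in the day: day 1, which the submitters assign to proliferation, day 3 to stratification, and day 5 to luminal cell specification. Each day had 3 libraries of 16.4 to 35.1 M reads. The labels do not say whether replicates were separate cultures or animals, so the p-values rest on the spread between these libraries alone.

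The mitochondrial ribosome translates the few respiratory chain proteins that the mitochondrial genome encodes. Its RNAs are made inside the organelle, but all of its proteins are encoded in the nucleus, made in the cytosol and imported. The small subunit holds and decodes the messenger RNA, and the large subunit joins amino acids and releases the new chain through its exit tunnel. Some of the proteins descend from bacterial ribosomal proteins and others were added in the course of mitochondrial evolution.

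Several properties of the libraries bear on the values. The day 1 libraries stood apart in sex-linked transcripts: the summed level of the Y-linked genes Ddx3y, Eif2s3y, Uty and Kdm5d was 3137 ± 113, 324 ± 24.2 and 461 ± 98.3 normalized counts on days 1, 3 and 5 (SD, n = 3), and Xist was 1825 ± 246, 5998 ± 507 and 7373 ± 1292. Day 1 and the source of its cells therefore cannot be told apart. The 5 basal airway markers Krt5, Krt14, Trp63, Krt15 and Ngfr were detected in every library but moved in different directions: from day 1 to day 3 Krt15 and Ngfr rose (log2 changes of 2.27 and 2.14), while Krt14, Trp63 and Krt5 fell (-1.98, -1.20 and -0.39). The epithelial pair Epcam and Cdh1 summed to between 17210 and 22389 normalized counts. Markers of leukocytes, endothelium, muscle and cartilage, summed separately for each cell type, came to 38.2 or fewer normalized counts in each library. The 4 fibroblast markers summed to 4.07 to 14.1 on day 1, 4.02 to 8.88 on day 3 and 103 to 129 on day 5. Dcn alone carried the day 5 level (94.1, 119 and 124, and 0 in the other 6 libraries), since Col1a1, Col3a1 and Pdgfra had 9.96 or fewer in each library. The part of these markers in the results was not tested.

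Promoter sequence was available for 69 of the genes, in the RefSeq table for GRCm38.p6, as windows of 250 bases before to 50 after each annotated start. The windows were searched on both strands for 8-letter cores of 2 factors known to drive nuclear genes of mitochondrial function: GCGCATGC (reverse complement GCATGCGC) for NRF1, whose 2 orientations overlap so that 1 site can match more than once, and CCGGAAGT (reverse complement ACTTCCGG) for ETS factors such as GABP. The 4 stretches shown run from 100 bases before to 20 after a start, with both cores in capitals, and were chosen after the matches were seen. Mrpl33 held both cores, Mrpl32 held the most NRF1 core matches, and Mrpl48 and Mrps22 each held an ETS core but went opposite ways between day 1 and day 3. Mrpl48 has 4 annotated starts in the table, and the window shown is the only 1 of them with the core. It belongs to the start furthest downstream of the 4, and the windows of the upstream starts lack the core. A gene was counted where any of its windows matched.
Mrpl33, chr5:31613851-31613970, plus strand: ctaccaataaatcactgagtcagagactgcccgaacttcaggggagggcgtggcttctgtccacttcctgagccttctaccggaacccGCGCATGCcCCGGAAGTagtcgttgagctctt
Mrpl32, chr13:14613018-14613137, minus strand: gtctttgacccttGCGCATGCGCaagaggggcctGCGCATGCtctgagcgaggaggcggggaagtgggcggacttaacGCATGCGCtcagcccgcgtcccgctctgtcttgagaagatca
Mrpl48, chr7:100583111-100583230, minus strand: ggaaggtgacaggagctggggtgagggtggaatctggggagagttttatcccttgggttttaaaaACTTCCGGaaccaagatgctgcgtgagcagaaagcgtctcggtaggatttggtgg
Mrps22, chr9:98601660-98601779, minus strand: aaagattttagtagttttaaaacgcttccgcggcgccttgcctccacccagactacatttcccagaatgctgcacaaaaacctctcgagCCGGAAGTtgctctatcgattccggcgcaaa

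The NRF1 core was found in the window of 8 of the 69 genes (11.6%), against 5.53% of the 11364 tested genes with a window and 3.05% of all 27025 genes with one. The ETS core was found in 12 (17.4%), against 8.53% and 4.31%. Only Mrpl33 held both. The 8 genes with an NRF1 core were Mrpl9, Mrpl10, Mrpl17, Mrpl22, Mrpl32, Mrpl33, Mrpl39 and Mrps18b, and their median log2 change from day 1 to day 3 was 0.37, against 1.02 for the 60 tested genes with a window but no such core. For the 12 genes with an ETS core the median was 1.16, against 0.88 for the 56 without. These matches describe letters in the windows and were not tested against the changes.

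Levels are given as normalized counts, the deposited log2 values returned to the linear scale, and errors are the SD of a day's 3 libraries. Changes are differences of log2(normalized count + 1) with their standard error (SE), and adjusted p-values are from limma with Benjamini-Hochberg adjustment over all 17338 tested genes. A gene is called at an adjusted p under 0.05. The days were compared in pairs, and since each day's libraries enter more than 1 comparison, the comparisons are not independent of each other.

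Levels of most mitochondrial ribosomal protein genes were highest on day 3. The mean of day 3 was the highest of the 3 days for 68 of the 77 genes, where 29.2% of all tested genes had this pattern; 35 had their lowest mean on day 5 and 33 on day 1. Against the mean of days 1 and 5, day 3 was higher for 69 genes, where 33.9% of all tested genes were called higher, and lower for 2, Mrps18b and Mrps2, where 36.8% were called lower. The median log2 difference was 0.95, and -0.04 over all tested genes. In the F test over the 3 days 75 of 77 genes differed, a share near the background, since 91.4% of all tested genes were called. In bulk RNA, more cells of a type and more RNA per cell cannot be told apart.

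**Figure D1:**
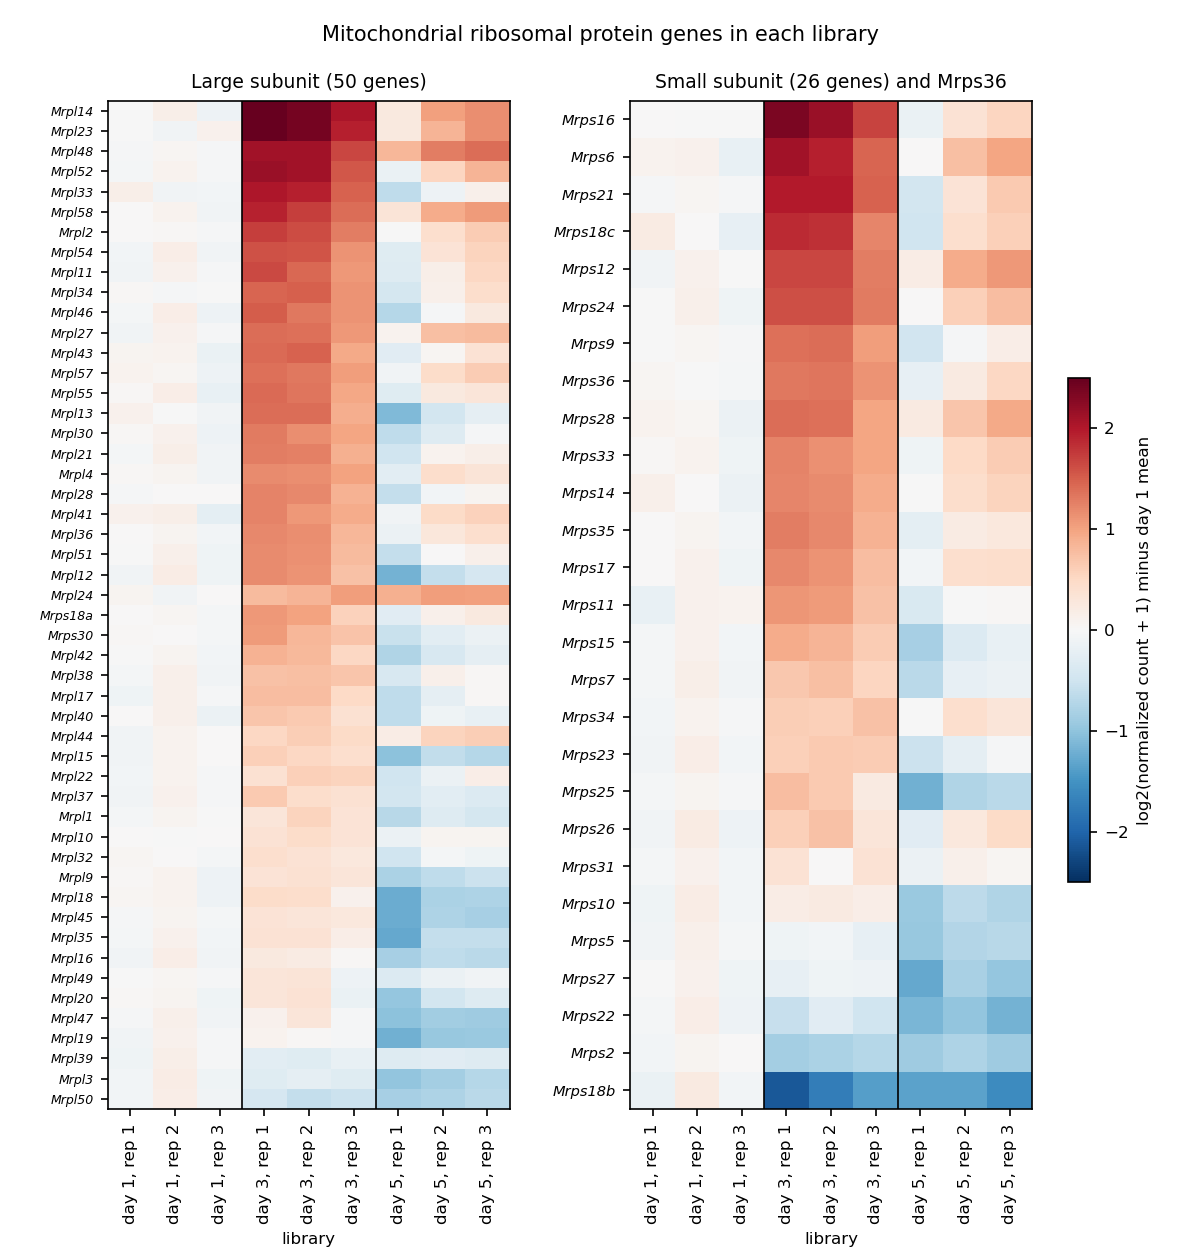
Each row is 1 of the 77 detected genes and each column 1 library; colour gives log2(normalized count + 1) minus the gene's day 1 mean, with the scale ending at 2.5 in either direction, and rows are ordered by the change from day 1 to day 3. The day 3 columns are red for all but a few genes at the bottom of each panel, and replicate 1 of day 5 is bluer than the other day 5 libraries.

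As a share of each library, the 78 genes together took 0.3%, 0.309% and 0.286% of reads on day 1, 0.486%, 0.487% and 0.43% on day 3, and 0.238%, 0.295% and 0.32% on day 5. All 3 day 3 libraries lay above the other 6, and days 1 and 5 overlapped. The means were 0.298 ± 0.012%, 0.468 ± 0.0326% and 0.284 ± 0.042% (SD, n = 3). Exact two-sided permutation tests gave p = 0.1 for day 3 against either other day, the smallest value that 3 against 3 libraries allow, and p = 0.8 for day 5 against day 1. Reads of cytosolic ribosomal protein genes also had their highest share on day 3, at 5.55 ± 0.208%, 12.7 ± 1.45% and 6.18 ± 1.33% on days 1, 3 and 5. Without these and the mitochondrial genome in the denominator, the share of the mitochondrial ribosomal protein genes was 0.327%, 0.553% and 0.325%.

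The balance between the 2 subunits varied little. The ratio of the mean small subunit level to the mean large subunit level, both per 1000 bases of transcript, was 0.774, 0.802 and 0.787 on day 1, 0.727, 0.749 and 0.759 on day 3, and 0.79, 0.812 and 0.81 on day 5. The day 3 ratios were the 3 lowest, with an exact two-sided permutation p = 0.1 against each other day, and p = 0.2 between days 5 and 1. Assigning subunits by symbol gave 0.778, 0.733 and 0.8 as the means of the 3 days.

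**Figure D2:**
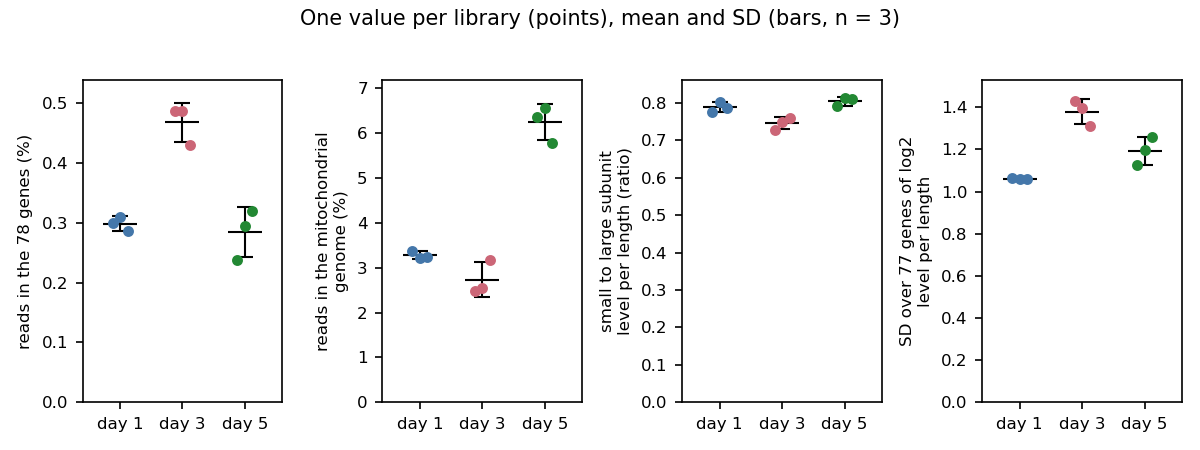
Points are single libraries and bars the mean and SD of the 3 libraries of a day, for the percent of reads in the 78 genes, the percent in the mitochondrial genome, the ratio of small to large subunit level per length, and the SD over the 77 detected genes of log2 level per length. The share of the 78 genes is highest in the day 3 libraries, between 0.43% and 0.487%, while the mitochondrial genome's share is highest on day 5.

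Between day 1 and day 3, as the submitters' stages go from proliferation to stratification, 60 of the 77 genes rose and 6 fell, while 11 were not called. Over all tested genes 36.1% were called higher and 37% lower. The median log2 change was 0.90, and 0.00 over all tested genes. Of the 50 tested large subunit genes 40 rose and 3 fell, with a median of 0.89, and of the 26 small subunit genes 19 rose and 3 fell, with a median of 0.89. Genes whose protein has a counterpart at the same place in the bacterial ribosome had medians of 0.96 in the large subunit (30 genes) and 1.18 in the small subunit (16 genes); the others had medians of 0.88 (20 genes) and 0.55 (10 genes). The others include Mrps18a and Mrps18b, which descend from a bacterial gene but whose proteins sit elsewhere. Counted with the first kind instead, they gave 0.90 and 1.11, and 0.87 and 0.55 for the rest. These medians are descriptions, and their differences were not tested.

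The 5 largest rises were in 4 large subunit genes and 1 small subunit gene. Mrpl14 (ENSMUSG00000023939), a protein conserved from bacteria at the face toward the small subunit, had 471, 526 and 437 normalized counts in the day 1 libraries, 2867, 2521 and 1975 on day 3, and 564, 976 and 1071 on day 5. It rose by a log2 change of 2.35 (SE 0.22, adjusted p = 6.18e-06), and no day 3 library came near the range of day 1. Mrpl23 (ENSMUSG00000037772), at the rim of the exit tunnel, had 467, 447 and 509 on day 1, 2734, 2501 and 1822 on day 3, and 562, 854 and 1063 on day 5, a rise of 2.29 (SE 0.22, adjusted p = 6.13e-06). For both genes the 3 days formed 3 ranges without overlap, with day 5 between the others.

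Mrps16 (ENSMUSG00000049960), a small subunit protein whose loss causes combined respiratory chain deficiency in humans, had the tightest day 1 values of the 5. They were 535, 529 and 524 normalized counts, followed by 2693, 2367 and 1708 on day 3 and 469, 676 and 768 on day 5. The log2 change was 2.06 (SE 0.20, adjusted p = 6.04e-06). Mrpl48 (ENSMUSG00000030706), which lies in the central protuberance at the top of the large subunit and has no bacterial counterpart, had 384, 406 and 380 on day 1, 1674, 1676 and 1246 on day 3, and 696, 944 and 1023 on day 5. It rose by 1.96 (SE 0.16, adjusted p = 2.5e-06) and kept clear of its day 1 range on day 5. Mrpl52 (ENSMUSG00000010406), another large subunit protein without a bacterial counterpart, had 1151, 1268 and 1173 on day 1, 5348, 5104 and 3489 on day 3, and 1073, 1736 and 2157 on day 5, a rise of 1.93 (SE 0.23, adjusted p = 3.02e-05). Its day 5 range enclosed all 3 day 1 values.

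Of the 6 genes that fell from day 1 to day 3, Mrps18b fell most. Mrps18b (ENSMUSG00000024436) is 1 of 3 genes descended from 1 bacterial ribosomal protein gene: the Mrps18c protein sits at the bacterial position in the small subunit, the Mrps18b protein elsewhere in the small subunit, and the Mrps18a protein in the large subunit. Mrps18b had 562, 739 and 597 normalized counts in the day 1 libraries, 144, 189 and 241 on day 3, and 248, 249 and 210 on day 5. Its log2 change was -1.74 (SE 0.19, adjusted p = 1.52e-05), and every later library lay below every day 1 library. Mrps18c (ENSMUSG00000016833) went the other way, with 330, 286 and 246 on day 1, 1045, 1010 and 667 on day 3, and 201, 379 and 430 on day 5, a rise of 1.64 (SE 0.27, adjusted p = 0.000291). Mrps18a (ENSMUSG00000023967) had 647, 660 and 620 on day 1, 1354, 1297 and 959 on day 3, and 524, 701 and 761 on day 5, a rise of 0.89 (SE 0.16, adjusted p = 0.000519). The day 3 ranges of Mrps18c and Mrps18a lay above both other days, and that of Mrps18b lay below day 1.

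The other falls were smaller. Mrps2 (ENSMUSG00000035772), a small subunit protein conserved from bacteria, had 911, 1005 and 967 on day 1, 535, 558 and 585 on day 3, and 521, 563 and 517 on day 5, with a log2 change of -0.78 (SE 0.09, adjusted p = 2.48e-05). Days 3 and 5 overlapped and both lay below day 1. Mrpl50 (ENSMUSG00000044018), without a bacterial counterpart, had 963, 1133 and 951 on day 1, 757, 667 and 694 on day 3, and 573, 595 and 634 on day 5, with a change of -0.52 (SE 0.10, adjusted p = 0.000912). Mrps22 (ENSMUSG00000032459), a small subunit protein added in mitochondria, had 609, 699 and 576 on day 1, 421, 511 and 443 on day 3, and 282, 316 and 277 on day 5, with a change of -0.45 (SE 0.12, adjusted p = 0.00639). In both genes the ranges of the 3 days did not overlap, although the difference of -0.23 between days 5 and 3 was not called for Mrpl50 (adjusted p = 0.0675).

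Mrpl3 (ENSMUSG00000032563), a core protein near the peptidyl transferase centre, had 1294, 1545 and 1273 normalized counts in the day 1 libraries, 1104, 1168 and 1100 on day 3, and 690, 759 and 833 on day 5. Its change of -0.28 (SE 0.11, adjusted p = 0.0341) depended on single libraries: without replicate 2 of day 1 it was -0.19 with an adjusted p of 0.127. The call was also lost without any 1 of the 3 day 3 libraries, and with the trend of transcript length removed the value turned to 0.31. Mrpl39 completed the 6, with 926 on day 1 and 776 on day 3 as means, and a change of -0.25 (adjusted p = 0.0329).

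**Figure D3:**
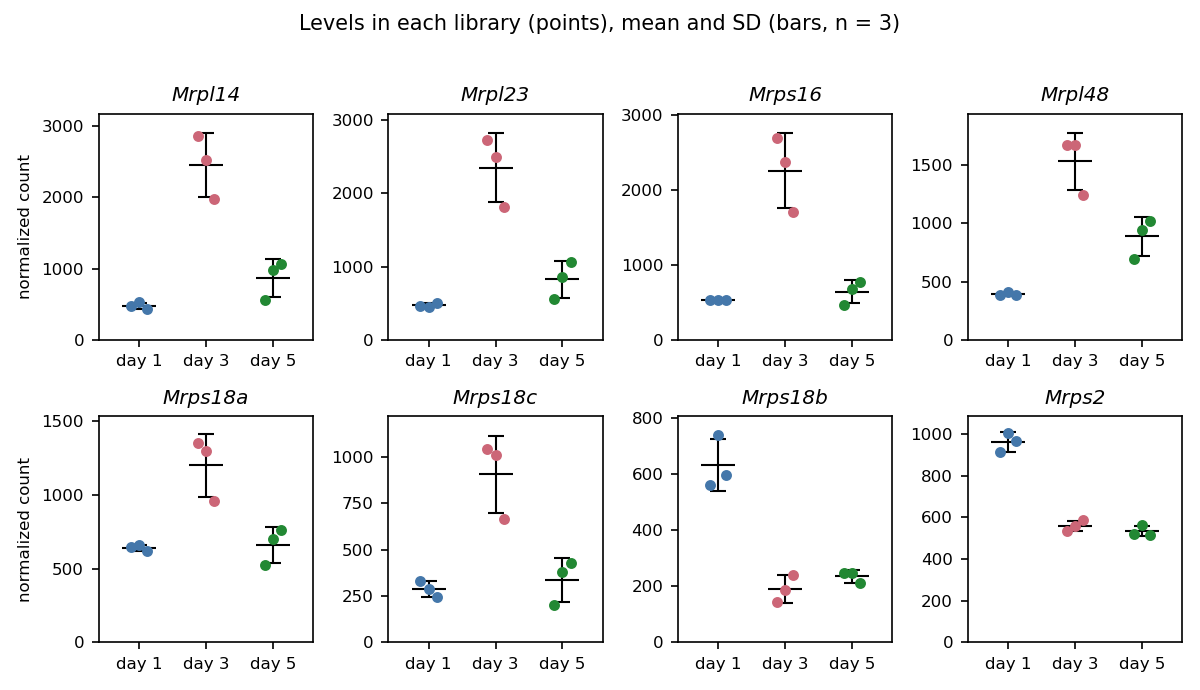
Points are normalized counts of single libraries and bars the mean and SD of 3 libraries, for 4 of the largest rises from day 1 to day 3, the 3 Mrps18 paralogs, and Mrps2; each axis starts at 0. Mrps18b and Mrps2 are highest in the day 1 libraries, while the other 6 genes are highest in the day 3 libraries.

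Short transcripts rose more than long ones from day 1 to day 3 in the whole data set, and the mitochondrial ribosomal protein genes are mostly short. Their reference transcripts had a median of 1316 bases, from 418 for Mrpl52 to 7300 for Mrpl17, against a median of 2535 for the 17046 tested genes with a length, and 56 of the 77 were below that median. Spearman's rho between transcript length and the log2 change was -0.45 over the 77 genes and -0.31 over all tested genes, a description across genes that share their libraries. In the shortest of 10 length bins of equal size, up to 720 bases, the 10 members had a median change of 1.72, against 0.69 for all genes of that length. From 721 to 1176 bases the 23 members had a median of 1.11, against 0.67. From 1177 to 1624 bases the 15 members were close to the rest, at 0.63 against 0.58.

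Among longer transcripts the difference did not run one way. In the bin of 1625 to 2066 bases the 4 members had a median of 0.28, against 0.40 for all genes, and in that of 2067 to 2535 bases the 4 members, among them Mrps2 and Mrpl50, had a median of -0.39 against 0.20. In the 5 bins above 2535 bases, which hold 5, 5, 6, 3 and 2 members, the members' medians were 1.25, 0.87, 0.53, 0.04 and 0.62, while those of all genes fell from 0.00 to -0.91. Bins with so few members are read as single genes: the longest, Mrpl17 of the exit tunnel, changed by 0.68 (SE 0.16, adjusted p = 0.00258).

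With the trend of length and GC content removed from each library before the fit, 48 genes rose, 7 fell, and the median was 0.67. Over all genes in that fit 36.4% were called higher and 34.6% lower, with a median of 0.04. The genes no longer called higher included Mrpl12 and Mrps18a (log2 changes of 0.29 and 0.15, adjusted p = 0.0936 and 0.267). Mrps27 and Mrpl20 joined the genes called lower, and Mrpl3 left them. Mrpl48, with a transcript of 4285 bases, moved from 1.96 to 2.62, and Mrps18b from -1.74 to -2.23. The step from day 3 to day 5 had the opposite trend over all genes, with a rho of 0.29, and 0 members rose and 69 fell after its removal, with a median of -0.87. Over all genes 25.5% were then called higher and 43.5% lower, with a median of -0.23, so falls were more common throughout than before. Within the 77 genes the correction turned the sign of the trend. Their rho with length went from -0.45 to a weaker 0.14 in the first step. In the second step it went from 0.26 to a stronger -0.57.

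**Figure D4:**
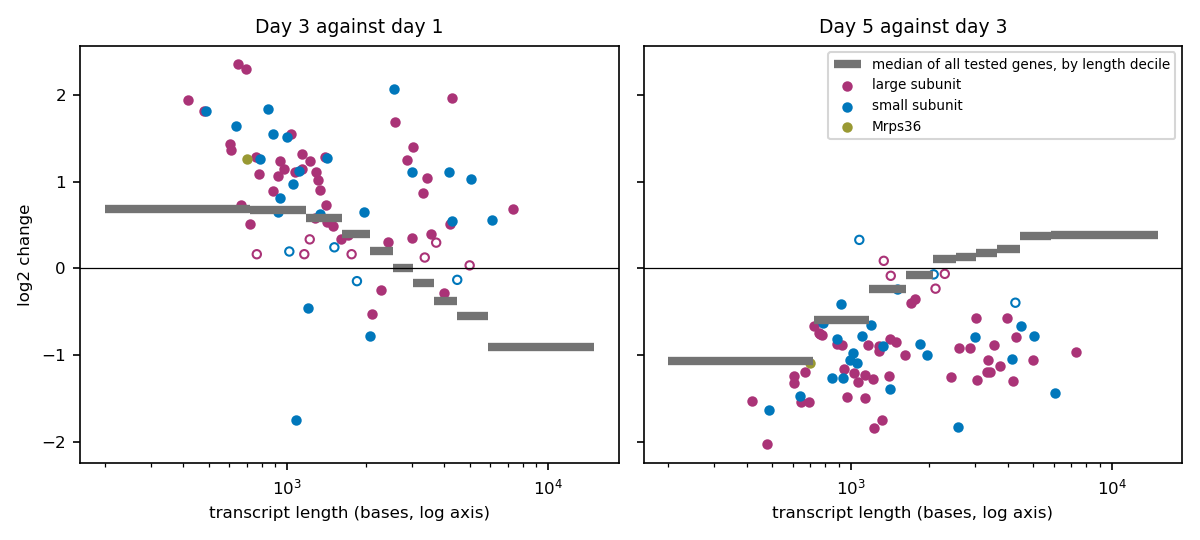
Points are the 77 genes by transcript length (log axis) and log2 change, filled where the adjusted p is under 0.05; grey bars are medians of all tested genes in 10 bins of equal size by length, with the bars of the outer bins cut short. In the left panel (day 3 against day 1) the grey bars fall from 0.69 to -0.91 with length, and most long members lie above them; in the right panel (day 5 against day 3) members of every length lie mostly below them.

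Between day 3 and day 5, toward luminal specification, 69 of the 77 genes fell and none rose in the limma fit. Over all tested genes 34.8% were called higher and 32.4% lower. The count of genes higher was also 0 at an unadjusted p under 0.05, and it was 1 with quantile normalization, 4 with scaling to total reads, and 1, Mrps18b, without replicate 3 of day 3. The median log2 change was -0.97, and 0.06 over all tested genes. The 50 large subunit genes had 46 falls and a median of -1.02, and the 26 small subunit genes had 22 falls and a median of -0.88.

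Mrpl33 (ENSMUSG00000106918), a very short large subunit protein of bacterial descent, fell most. It had 935, 795 and 806 normalized counts in the day 1 libraries, 3424, 3236 and 2337 on day 3, and 544, 771 and 918 on day 5, a log2 change of -2.02 (SE 0.19, adjusted p = 1.05e-05) that returned it to a range overlapping day 1. Mrpl13 (ENSMUSG00000022370), also of bacterial descent, had 1181, 1091 and 1041 on day 1, 2918, 2888 and 2077 on day 3, and 511, 799 and 941 on day 5, a change of -1.83 (SE 0.21, adjusted p = 3.19e-05). Mrps16 fell by 1.83 on the log2 scale (SE 0.20, adjusted p = 2.15e-05), nearly its rise from day 1 to day 3. Mrpl13 ended below its day 1 range, whereas Mrps16 and Mrpl33 overlapped theirs.

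Mrpl12 (ENSMUSG00000039640) forms the flexible stalk that recruits translation factors. It had the highest counts of the family in every library of days 1 and 3, before scaling for length: 2429, 2916 and 2382 on day 1, 5851, 5613 and 4234 on day 3, and 1137, 1691 and 1910 on day 5. Its change from day 3 to day 5 was -1.75 (SE 0.19, adjusted p = 2.48e-05), and all 3 day 5 libraries were below all of day 1. Mrps21 (ENSMUSG00000054312), a small subunit protein of bacterial descent, had 1052, 1108 and 1053 on day 1, 4242, 4223 and 2964 on day 3, and 776, 1355 and 1696 on day 5, a change of -1.63 (SE 0.24, adjusted p = 0.000213). Its day 5 values straddled those of day 1.

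The 8 genes not called between day 3 and day 5 were Mrps18b, Mrps2, Mrpl50, Mrpl39, Mrps31, Mrpl24, Mrpl44 and Mrps26. Mrpl24, at the exit tunnel, had 1295, 1358 and 1559 normalized counts on day 3 and 1384, 1554 and 1531 on day 5, a difference of 0.09 (SE 0.10, adjusted p = 0.445). Mrpl44, also at the tunnel exit, had a log2 difference of -0.08 (adjusted p = 0.561) and Mrps26 one of -0.39 (adjusted p = 0.0881). These 3 had risen from day 1 to day 3 by 0.90, 0.54 and 0.55. Mrps31 was called in none of the 3 comparisons, and its levels of 346, 412 and 347 (means of days 1, 3 and 5) overlapped between days.

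Day 5 against day 1 showed a mixed picture. Higher levels on day 5 were called for 10 genes and lower levels for 27, while 40 were not called. Over all tested genes 36.7% were called higher and 37.7% lower, so the share of members called higher lay below the background. The median log2 change was -0.12, and -0.06 over all tested genes. This split depended on the scaling, on the trend of length and GC content and on 1 library. With quantile normalization 18 genes were higher and 18 lower, where 6257 and 6700 of all 17338 tested genes were. With scaling to total reads 18 were higher and 27 lower, where 6616 and 6123 of all tested genes were. With the length and GC trend removed 13 were higher and 36 lower, with a median of -0.34. Of the 17046 genes in that fit 5559 were higher and 7576 lower, with a median of -0.23. Without replicate 1 of day 5, 27 were higher and 24 lower, with a median of 0.07. The shares over all genes in that last setting are not given here. The median difference from the day 1 mean was -0.46 in that library, and -0.01 and 0.12 in the other day 5 libraries.

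The genes highest on day 5 relative to day 1 were Mrpl48 (log2 change 1.16, SE 0.16, adjusted p = 6.12e-05) and Mrpl24 (0.99, SE 0.10, adjusted p = 5.68e-06). Mrpl24 (ENSMUSG00000019710) had 790, 711 and 753 normalized counts on day 1, below all 6 later libraries, and was the only detected member whose mean was highest on day 5. Mrpl14, Mrpl58 and Mrpl23 followed, at 0.81, 0.77 and 0.75. Mrpl58 (ENSMUSG00000018858), a hydrolase built into the large subunit that releases chains from stalled ribosomes, had 505, 530 and 472 on day 1, 1912, 1664 and 1331 on day 3, and 631, 956 and 1045 on day 5. With the length and GC trend removed its day 5 difference was 0.27 and no longer called (adjusted p = 0.235).

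At the other end, Mrps18b was lowest relative to day 1, with a log2 change of -1.41 (SE 0.19, adjusted p = 5.41e-05), followed by Mrps22 at -1.10 (SE 0.12, adjusted p = 1.29e-05). Mrpl19 (ENSMUSG00000030045), a large subunit protein of bacterial descent, had 882, 1009 and 921 normalized counts in the day 1 libraries, 1000, 960 and 919 on day 3, and 407, 488 and 491 on day 5. Mrps27 (ENSMUSG00000041632), a pentatricopeptide repeat protein of the small subunit, had 646, 703 and 603 on day 1, 565, 602 and 594 on day 3, and 267, 369 and 332 on day 5. Both changed by -1.02 against day 1 (adjusted p = 7.03e-06 and 3.67e-05), and in both the drop came after day 3. Mrpl45 (ENSMUSG00000018882), which anchors the ribosome to the inner membrane next to the tunnel exit, had 1170, 1256 and 1159 on day 1, 1516, 1473 and 1442 on day 3, and 503, 698 and 674 on day 5. Its change against day 1 was -0.95 (SE 0.12, adjusted p = 3.98e-05).

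Members of the named sites of the large subunit also varied. The shares over all tested genes were 36.1% higher from day 1 to day 3 and 32.4% lower from day 3 to day 5. Of all 50 tested large subunit genes, which include these, 40 rose and 46 fell. Removing the trend of length and GC content made the shares 36.4% and 43.5%, and the large subunit counts 32 and 46. Of the 6 central protuberance genes, Mrpl18, Mrpl38, Mrpl40, Mrpl46, Mrpl48 and Mrpl58, 5 rose from day 1 to day 3 with a median of 1.02, the exception being Mrpl18 at 0.33 (adjusted p = 0.0611). Once the trend of length and GC content was taken out, only Mrpl46, Mrpl48 and Mrpl58 of these were called higher, and the median was 0.44. All 6 fell from day 3 to day 5, with log2 changes from -0.79 to -1.48. Of the 7 exit tunnel genes, Mrpl17, Mrpl22, Mrpl23, Mrpl24, Mrpl44, Mrpl45 and Mrpl47, 6 rose with a median of 0.54, and 5 fell afterwards. Without the trend 4 of them were called higher, with a median of 0.57, and 4 were called lower afterwards. The tunnel group held both one of the largest rises, Mrpl23, and a gene not called, Mrpl47 at 0.13 (adjusted p = 0.351). The detected stalk genes Mrpl10, Mrpl11 and Mrpl12 rose by 0.39, 1.39 and 1.01, of which only Mrpl11 was called without the trend, and then changed by -0.40, -1.28 and -1.75.

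Further members rose to day 3 and fell to day 5 in the same way. Mrps12 (ENSMUSG00000045948), at the decoding centre, had 464, 531 and 486 normalized counts in the day 1 libraries, 1576, 1579 and 1205 on day 3, and 562, 940 and 1045 on day 5. Its changes were 1.55 and then -0.81 (adjusted p = 6.21e-05 and 0.00564), and day 5 stayed above day 1 by 0.73 (adjusted p = 0.00816). Mrps6 (ENSMUSG00000039680), of bacterial descent, had 382, 389 and 319 on day 1, 1551, 1394 and 993 on day 3, and 363, 607 and 717 on day 5, with changes of 1.83 and -1.25 (adjusted p = 5.49e-05 and 0.00107). Both had their 3 highest values on day 3, and only Mrps6 overlapped day 1 on day 5.

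Mrpl36 (ENSMUSG00000021607), a very small protein of the large subunit, had 802, 829 and 756 on day 1, 1829, 1777 and 1419 on day 3, and 719, 967 and 1063 on day 5. Mrps30 (ENSMUSG00000021731), of the large subunit in spite of its symbol, had 587, 584 and 561 on day 1, 1203, 1032 and 948 on day 3, and 391, 479 and 523 on day 5. Mrpl36 changed by 1.06 and -0.88 (adjusted p = 8.62e-05 and 0.000487), and Mrps30 by 0.87 and -1.19 (adjusted p = 0.000123 and 2.27e-05). The lower day 5 level of Mrps30 against day 1, -0.32 (adjusted p = 0.0414), lost its call without replicate 1 of day 5 (adjusted p = 0.121), among other settings. Mrps36 (ENSMUSG00000061474), the gene outside the ribosome, had 575, 546 and 537 on day 1, 1380, 1400 and 1204 on day 3, and 481, 642 and 788 on day 5. Its changes of 1.26 and -1.09 (adjusted p = 3.79e-05 and 0.000172) lay within the range of the ribosomal genes.

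Levels can be compared between genes per 1000 bases of transcript. On this scale the highest over all libraries were Mrpl52, with means of 2864, 11118 and 3961 normalized counts per 1000 bases on days 1, 3 and 5, Mrps21, with 2194, 7807 and 2614, and Mrpl33, with 1769, 6274 and 1557. These have the shortest transcripts of the 77, at 418, 488 and 478 bases. The lowest were Mrps25 (ENSMUSG00000014551), with 124, 185 and 68.4, Mrpl1 (ENSMUSG00000029486), the protein of the mobile stalk opposite Mrpl12, with 127, 168 and 91.3, and Mrpl47 (ENSMUSG00000037531), with 167, 183 and 87.8. Mrps25 had 732, 794 and 742 normalized counts in the day 1 libraries, 1295, 1182 and 888 on day 3, and 328, 448 and 470 on day 5, and its transcript of 6073 bases is among the longest of the family. Mrpl1 had 439, 472 and 448 normalized counts in the day 1 libraries, 558, 664 and 570 on day 3, and 279, 361 and 334 on day 5. Mrpl47 had 551, 609 and 528, then 607, 691 and 550, and then 276, 307 and 303. Their log2 differences were 0.40 and 0.13 between days 3 and 1 (adjusted p = 0.0146 and 0.351) and -0.88 and -1.05 between days 5 and 3, and their day 5 levels stood -0.49 and -0.93 from day 1 on the log2 scale.

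The spread of levels between the genes differed by day. The SD over the 77 genes of log2 level per 1000 bases was 1.06, 1.06 and 1.06 on day 1, 1.43, 1.40 and 1.31 on day 3, and 1.12, 1.20 and 1.26 on day 5, without overlap between days. Exact two-sided permutation tests gave p = 0.1 for each pair of days, the smallest possible. The ratio of the highest to the lowest member was 31.4 ± 0.686 on day 1, 74.3 ± 19.9 on day 3 and 56.8 ± 9.58 on day 5 (SD, n = 3). The trend with transcript length touches both measures, and its part in them was not tested.

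**Figure D5:**
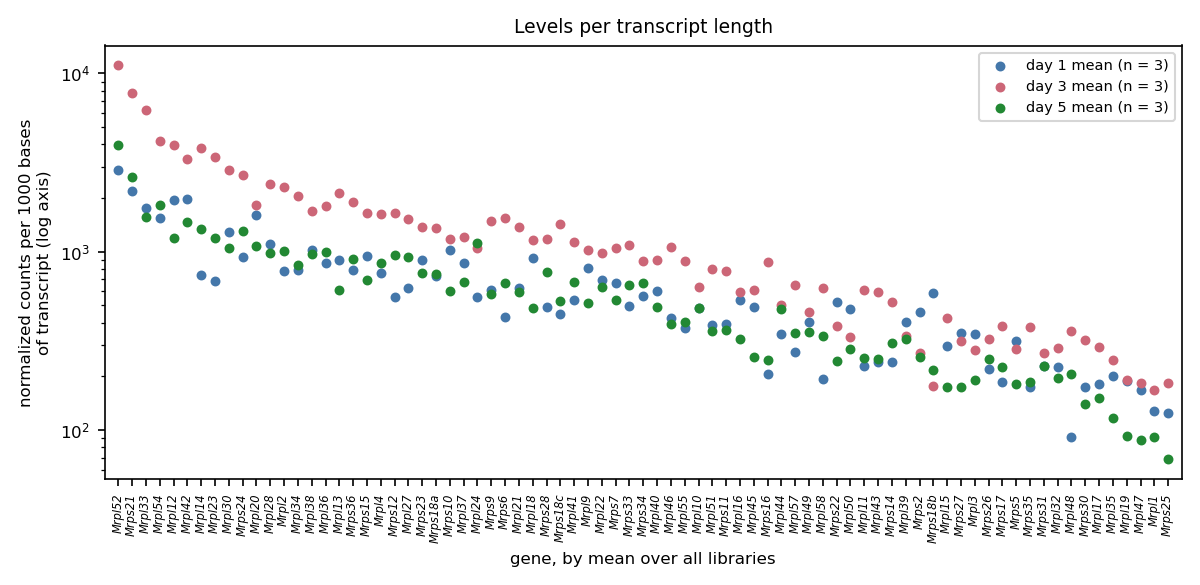
Each column is 1 of the 77 detected genes, ordered by level over all libraries, and points are day means (n = 3) of normalized counts per 1000 bases of transcript on a log axis. Day 3 lies above the other days for most genes and stands furthest from them among the highest genes at the left. A few genes, among them Mrps18b and Mrps2, have day 1 on top.

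Some members share sequence with other genes, and the sources used here do not say whether strand was used in counting. In GENCODE M21, 28 of the 78 share exonic bases with another gene, 24 of them with one on the opposite strand, and 17 over at least 10% of the transcript. Mrps25 shares 75.6% with Nr2c2, whose own mean was 582 normalized counts on day 1 and 36.9 on day 3, with 263, 29.7 and 25.8 in the day 5 libraries. Mrps18b shares 59.1% with the non-coding gene Gm16279, at 34.2, 19.8 and 35.8. Mrpl24 shares 43.6% with Rrnad1, Mrpl19 39.2% with Gcfc2, Mrpl13 27.0% with Mtbp, Mrps27 22.6% with 6430562O15Rik, Mrps30 18.1% with B430218F22Rik, Mrpl47 18.1% with Actl6a and Ndufb5, Mrpl14 16.4% with Tmem63b and Mrpl12 15.2% with Gm16755. Without strand, reads of such pairs cannot be told apart, so these levels are uncertain. On the same strand, Mrps6 shares 36.1% with Slc5a3 and Gm49711, Mrpl33 37.0% with Gm43809, and Mrps18c 27.3% with Gm43511.

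Processed pseudogenes that match at least 50% of the transcript at 90% identity or more exist for 6 members: Mrpl22, Mrpl23, Mrpl27, Mrps10, Mrps18c and Mrps21. The copy of Mrpl23, Mrpl23-ps1, was itself listed at 74.8, 489 and 128 normalized counts on days 1, 3 and 5, and that of Mrps21, Gm6181, at 160, 706 and 171, so reads may have been divided between them. In a count added after the data were seen, the 46 members with neither a shared exon nor such a copy were 36 higher and 5 lower on day 3 against day 1, and 0 higher and 42 lower on day 5 against day 3. Their shares called in each direction were within 1.5 times those of all 77.

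Mrpl53 (ENSMUSG00000030037), a stalk base protein, was the only member not detected. It was listed without a read in all 9 libraries, which allows 3 reads, or 1.82 to 4.02 normalized counts, per library for counting error alone. All of its reference transcript lies in exons of Gm42688 on the same strand, which had means of 7.43, 3.58 and 20.8 normalized counts on days 1, 3 and 5. Of the same transcript 2.16% also overlaps Ccdc142os on the opposite strand, at 4.48, 29.8 and 26.6. Reads that fall in 2 genes may be dropped by a counter, and whether that happened here was not tested.

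Other genes of mitochondrial translation were taken from lists by role. Their counts stand against the shares of all tested genes called higher and lower. These were 36.1% and 37% from day 1 to day 3, and 34.8% and 32.4% from day 3 to day 5. On day 5 against day 1 they were 36.7% and 37.7%. With the trend of length and GC content taken out, these pairs became 36.4% and 34.6%, 25.5% and 43.5%, and 32.6% and 44.4%. Scaling to total reads called 5142 of the 17338 genes higher and 7540 lower from day 1 to day 3. It gave 8154 and 3884 from day 3 to day 5, and 6616 and 6123 on day 5 against day 1. Quantile normalization gave 6165 and 6179, 5603 and 5785, and 6257 and 6700 in the same order. Splits in these settings are to be read against these values. Among 5 mitochondrial ribosomal proteins whose symbols fall outside the rule, 4 rose and 1 fell from day 1 to day 3, and all 5 fell from day 3 to day 5. Aurkaip1, of the small subunit, rose most, from 1066 ± 70.5 to 3177 ± 548 normalized counts (log2 change 1.56, adjusted p = 2.44e-05), and was at 1308 ± 321 on day 5. Chchd1, also of the small subunit, had the largest fall to day 5, from 2614 ± 398 to 816 ± 234 (-1.71, adjusted p = 3.01e-05). The exception was Ptcd3, a pentatricopeptide repeat protein of the small subunit, at 2212 ± 238, 1032 ± 110 and 806 ± 79.8 on the 3 days, a change of -1.10 to day 3 (adjusted p = 1.32e-05) and the only one of the 5 called between days 1 and 5, where quantile normalization called 2 higher and 1 lower.

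Of 30 detected assembly factors, which modify the ribosomal RNAs and join the parts, 17 rose and 7 fell from day 1 to day 3, 4 rose and 14 fell from day 3 to day 5, and 13 were higher and 7 lower on day 5 than on day 1. With scaling to total reads the middle split became 10 and 9; taking out the trend of length and GC content turned the last to 7 and 14. Rpusd3, a pseudouridine synthase, rose from 39.4 ± 8.59 to 190 ± 46.7 normalized counts (2.23, adjusted p = 2.69e-05) and fell to 55.6 ± 10.1 (-1.74, adjusted p = 0.000238). Malsu1, which binds the Mrpl14 protein and keeps unfinished large subunits from joining, was at 329 ± 29.2, 1101 ± 117 and 440 ± 95.5, a rise of 1.74 (adjusted p = 5.97e-06). Afg3l2, a protease that processes the Mrpl32 protein, fell most to day 3 (-0.66, adjusted p = 9.91e-05) and was lowest against day 1 on day 5 (-1.08, adjusted p = 2.23e-06). Nsun4, an RNA methyltransferase, rose most from day 3 to day 5 (1.03, adjusted p = 1.77e-05), and Ngrn was the highest on day 5 against day 1 (1.18, adjusted p = 1.33e-05).

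Translation factors came next. Of 16 detected, 6 rose and 5 fell from day 1 to day 3, 1 rose and 5 fell from day 3 to day 5, and 2 were higher and 7 lower on day 5 than on day 1. With scaling to total reads these splits became 4 and 7, 7 and 4, and 3 and 5. Taking out the trend of length and GC content gave 0 rises and 13 falls from day 3 to day 5. The shares of the first step were near those of all genes. Gfm1, the elongation factor that moves the ribosome along, fell from 1966 ± 128 to 731 ± 14.4 normalized counts (-1.42, adjusted p = 8.62e-07) and stayed at 687 ± 57.6. Slirp, a partner of Lrpprc in stabilizing mitochondrial messenger RNAs, rose from 10.5 ± 5.36 to 50.2 ± 15.1 (2.22, adjusted p = 0.00116), while Lrpprc itself fell from 2061 ± 118 to 893 ± 77.3 (-1.21, adjusted p = 1.82e-06). Mtres1, a ribosome rescue factor, fell most from day 3 to day 5 (-1.86, adjusted p = 4e-05), and Mtrf1, a release factor, rose most (0.69, adjusted p = 0.0165), a call lost without replicate 3 of day 3 (0.49, adjusted p = 0.057).

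The 20 genes that charge mitochondrial transfer RNAs showed 7 rises and 6 falls from day 1 to day 3, 3 rises and 9 falls from day 3 to day 5, and 4 higher and 9 lower on day 5 than on day 1. With scaling to total reads the first split became 5 and 10 and the second 4 and 5, while taking out the length trend gave 1 and 16 for the second and 2 and 14 for the third. The first split was near the shares of all genes. Fars2, for phenylalanine, rose most (1.83, adjusted p = 1.58e-06) and Mars2, for methionine, fell most (-1.87, adjusted p = 1.54e-06). Cars2, for cysteine, rose most from day 3 to day 5 (0.89, adjusted p = 0.000117). Lars2, for leucine, had the largest fall there (-1.84, adjusted p = 0.0106), but its day 3 values were 8362, 2026 and 1676, and without replicate 1 of day 3 the change was -1.11 (adjusted p = 0.0155).

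The mitochondrial genome encodes the RNAs that these ribosomes contain and translate. Of 15 of its transcripts, 4 rose and 8 fell from day 1 to day 3, 11 rose and 0 fell from day 3 to day 5, and 10 were higher and 3 lower on day 5 than on day 1. With quantile normalization the first split became 2 and 11 and the last 5 and 3, and without the length trend the first was 6 and 5. All 37 genes listed for the mitochondrial genome, not only these 15, together took 3.28 ± 0.0862%, 2.74 ± 0.381% and 6.23 ± 0.4% of reads on the 3 days. The large ribosomal RNA mt-Rnr2 was at 10403 ± 2155, 4432 ± 1504 and 5110 ± 239 normalized counts, and the small ribosomal RNA mt-Rnr1 at 4716 ± 422, 3432 ± 797 and 2818 ± 426. Both fell from day 1 to day 3 (-1.26 and -0.48, adjusted p = 0.000288 and 0.0226), but mt-Rnr1 lost the call without replicate 1 or 3 of day 1 or replicate 2 or 3 of day 3 (adjusted p = 0.0657 to 0.0998). How ribosomal RNA was treated in library preparation is not given in the sources used here, and its part in these levels was not tested. Among the messengers, mt-Nd4l fell most to day 3 (-3.21, adjusted p = 0.00032) and rose to day 5 by 2.35 (adjusted p = 0.00319). Its day 5 values were 9336, 2831 and 2278, and without replicate 1 of day 5 the rise was 1.73, below that of mt-Nd4 (2.08). The transcript mt-Nd6, the one messenger of the other strand, rose most to day 3 (1.51, adjusted p = 3.78e-05). Without strand in the counting, mt-Nd6 is uncertain.

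Regulators of mitochondrial biogenesis were mostly lower after day 1. Of 13 detected, 1 rose and 8 fell from day 1 to day 3, 3 rose and 5 fell from day 3 to day 5, and 1 was higher and 10 were lower on day 5 than on day 1. The middle split became 6 and 1 with scaling to total reads, 4 and 4 with quantile normalization and 1 and 7 without the length trend, which also made the first split 2 and 11. Gabpa, the DNA-binding part of the ETS factor GABP, fell from 1488 ± 107 to 370 ± 73.3 normalized counts (-2.02, adjusted p = 5.03e-06) and rose to 691 ± 172 (0.89, adjusted p = 0.00174). Nrf1, the factor of the other core searched, stood at 973 ± 44.5, 772 ± 71.6 and 543 ± 42.9 on the 3 days, with changes of -0.34 and -0.51 (adjusted p = 0.0132 and 0.0016); the first lost its call without replicate 1 of day 3 (adjusted p = 0.062). Esrra, a nuclear receptor, was the 1 regulator that rose to day 3 (0.56, adjusted p = 0.00015), though it changed by -0.29 once the length and GC trend was taken out. Ppargc1a, a coactivator, was higher on day 5 than on day 1 (1.53, adjusted p = 0.0149), with 125, 29.9 and 160 normalized counts in the day 1 libraries. Without replicate 2 of day 1 the difference was 0.79 (adjusted p = 0.00349). Pprc1, its relative, was lowest (-2.04, adjusted p = 3.96e-08). Myc, which drives ribosome production in growing cells, was at 3986 ± 217, 1566 ± 237 and 1584 ± 170.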

How the data were processed

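Total RNA was sequenced, per the labels. The submitters' processing notes name HISAT2 2.1.0, the build GRCm39 and DESeq2 1.36.0. Counter, annotation and use of strand were not given in the sources used. The deposited table holds log2 values, and each was read as a whole number of reads over 1 size factor per library. Cells without a read held an error text (297330 cells) and were read as 0. Of 57107 lines, 359 repeated a gene and were dropped. Low values were whole multiples of 1 read within 0.01 read. The tolerance grew with the count, and at the highest counts any value would pass. Depths were read back on this basis: 30.8 ± 4.29, 21.9 ± 2.55 and 17.6 ± 1.51 M reads on days 1, 3 and 5 (SD, n = 3). No value column lacked a sample.

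limma 3.58.1 (R 4.3.3; lmFit, eBayes with a mean-variance trend) was fitted to log2(normalized count + 1) of genes with at least 10 normalized counts in 3 libraries, with 1 mean per day over 9 libraries and 6 residual degrees of freedom, two-sided; the pseudocount understates changes of low genes. It was also run on simulated counts in which few genes changed and no trend with length was present. That setting differs from these data, so no conclusion is drawn from it. Transcript length and GC content came from GENCODE M21 (GRCm38), by gene identifier, for 98.3% of tested genes; gene positions are not printed since the builds differ, and the promoter positions printed are those of the RefSeq table's build. The trend removed was a natural spline of 4 degrees of freedom per library. Copies were sought with minimap2 2.31. Single values per library were compared by exact permutation tests.

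The members and lists were chosen with earlier results of these data known. Values in every library are given for a fixed set of 10 genes, the 5 largest called rises and falls per comparison and the 3 highest and 3 lowest per length; other members are named with summary values, and of each list the largest called rise and fall, beside Nrf1, Lrpprc, Malsu1, Myc and the ribosomal RNAs, added after their values were seen.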

Additional observations from a re-analysis of the deposited data

How the results depend on the processing

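Alternatives changed the pseudocount (8), the filter on low counts, the treatment of zeros, the scaling, the trend with length and GC content, the replicate block, the days in the fit and, one at a time, each library. The log2 changes of single named genes were recomputed under these. Of them 1549 kept their direction and call, 38 gained a call, 49 lost one and 17 changed sign, and the cause was not tested. Several settings leave a log2 change as it was, so that only the call could change. These are the filters, the replicate block alone, fits of only the days compared, and leaving out a library of another day. The count of 1549 includes them and is no measure of stability. Scaling to total reads moved the median of all tested genes by -0.24 for day 3 against day 1 and 0.33 for day 5 against day 3; removing the length and GC trend moved it by -0.29 for day 5 against day 3. For day 5 against day 3, quantile normalization gave 1 member higher and total reads 4, with a median of -0.64, and leaving out libraries gave 0 to 1. For day 5 against day 1 both scalings gave 18 higher, and leaving out libraries 8 to 27. Against the mean of days 1 and 5, total reads gave 4 lower. Without the mitochondrial genome and cytosolic ribosomal protein genes, the share of reads differed by 0.226 and -0.228 percentage points in the 2 steps, against 0.169 and -0.183. Signs changed with the length and GC trend removed, with or without the block, for Mrps18a (-0.21), Mrps16 (-0.13) and Mrpl33 (0.28) on day 5 against day 1, and Mrpl3 (0.31) on day 3 against day 1. Total reads turned Mrps2 (0.27, limma adjusted p = 0.0413) and Mrpl50 (0.10) on day 5 against day 3, and Mrpl19 (-0.23, adjusted p = 0.035) and Mrpl47 (-0.14) on day 3 against day 1. Leaving out 1 library at a time gave -0.007 to 0.090 for Mrpl19 there, and, on day 5 against day 1, -0.083 to 0.185 for Mrps18a, -0.045 to 0.501 for Mrps18c and -0.062 to 0.502 for Mrps21; the negative value came without replicate 1 of day 1 for Mrpl19 and without replicate 3 of day 5 for the others, and for Mrps18a also without replicate 2 of day 5 (-0.024). Deviations of same-numbered libraries from their day means had correlations of -0.311 to 0.141. With 3 libraries per day these values cannot show whether the numbers pair the libraries, which the labels do not say. With the replicate block 59 members rose and 5 fell on day 3 against day 1. The block gave 0 and 68 on day 5 against day 3, and 9 and 26 on day 5 against day 1. Shares over all tested genes with the block, or without single libraries, are not given here. Counts of members in those settings therefore cannot be set against the background. Leaving out libraries in turn for the genes of the other lists, and the other class for Mrps18a and Mrps18b, were chosen after seeing the data.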
